A study of Mus musculus with 656 samples.

Results

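Interferon-stimulated genes are the genes that cells switch on when they sense type I or type II interferon, and 38 of them were followed here in 3T3 cells, a long-established line of mouse embryonic fibroblasts. The 38 genes were taken from a list of symbols, and all 38 were found among the 22070 genes of the count table. The list was written from knowledge of the pathway, with earlier results of these data known. All 38 passed the filter on low counts that left 10766 genes for testing.

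RNA was measured by TagSeq, which sequences the 3′ ends of polyadenylated transcripts. Cells of each group had first been kept for 1 h with 0, 25, 50 or 100 µM of SC-514, a compound that inhibits IKKβ. They then received either IL-1β (1 ng/ml) or the cytokine TNF-α (10 ng/ml) and were lysed after 15, 30, 60, 120 or 360 min. One more group had neither stimulus nor SC-514, which gave 41 groups of 4 libraries, 20 groups for each stimulus label. No group had SC-514 without a stimulus, and what the 0 µM groups received in place of the compound is not given in the sources used here. The names of the count columns and of the sample titles give the prefix of the stimulus in opposite ways, so the stimulus named for a library is the one its stimulus label and description give. The prefix of the unstimulated columns is different from that of either stimulus, so a difference between stimulated and unstimulated libraries cannot be told apart from a difference between these column sets. The sources do not say whether the 4 libraries of a group were separate cultures. P-values therefore measure the spread between libraries only. In the main tests that spread was estimated in 1 fit over all 41 groups, not from the compared groups alone.

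Interferons bind receptors on the cell surface, and the receptors activate Janus kinases, which in turn activate transcription factors. STAT2 and IRF9 are subunits of the complex ISGF3, which binds a DNA element called ISRE, while a different element called GAS serves the response to interferon-γ. Fibroblasts express the receptors, and they can make interferon-β themselves through IRF and NF-κB factors. SC-514 acts on IKKβ, the kinase that releases NF-κB from its cytoplasmic inhibitors, so the design bears on which of the genes respond to the cytokines and how they behave when this kinase is blocked.

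The promoters of the members the results turn on are shown because ISRE is a known element of many interferon-stimulated genes. The RefSeq promoter table for GRCm38.p6 gave 31 promoters of 28 members, each with 250 bases before and 50 bases after the start. The other 10 members, Usp18, Dhx58, Parp14, Zbp1, Rtp4, Mx1, Iigp1, Mx2, Parp9 and Oas2, had no promoter in it. The ISRE core GAAANNGAAA, searched on both strands, was found in 17 of the 31 promoters (54.8%), against 1131 of 32851 promoters of the same length (3.44%). The GAS element TTCNNNGAA was found in 7 of 31 (22.6%), against 8.3% of all. A loose NF-κB motif, GGGNNNNNCC, was found in 18 of 31 (58.1%), against 50.8% of all. A match is a run of letters and not a measured binding site. Matches of different motifs can overlap, as the GAS and ISRE matches of Bst2 do. In the sequences below, written 5′ to 3′ on the strand of the gene, capitals mark matches of the ISRE core, which read TTTCNNTTTC where the match lies on the other strand.

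Rsad2 (viperin) and Cmpk2 (a mitochondrial nucleotide kinase) lie 12751 bases apart on chromosome 12 and are transcribed away from each other. The Rsad2 window is chr12:26456403-26456702 on the minus strand, with a match that begins 120 bases before the start. The Cmpk2 window is chr12:26468965-26469264 on the plus strand and held no match.
Rsad2: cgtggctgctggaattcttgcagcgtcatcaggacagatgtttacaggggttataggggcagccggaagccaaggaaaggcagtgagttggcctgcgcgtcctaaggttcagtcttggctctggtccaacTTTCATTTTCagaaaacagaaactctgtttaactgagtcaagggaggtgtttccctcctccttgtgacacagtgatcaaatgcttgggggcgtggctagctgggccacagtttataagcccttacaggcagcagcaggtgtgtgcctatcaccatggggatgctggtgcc
Cmpk2: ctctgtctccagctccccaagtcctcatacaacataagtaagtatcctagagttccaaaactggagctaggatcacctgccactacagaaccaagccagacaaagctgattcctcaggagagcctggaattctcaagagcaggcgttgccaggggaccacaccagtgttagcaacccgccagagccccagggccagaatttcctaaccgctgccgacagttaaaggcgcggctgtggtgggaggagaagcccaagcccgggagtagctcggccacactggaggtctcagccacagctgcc

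Ifit1, a protein that binds foreign RNA caps, has its window at chr19:34640639-34640938 on the plus strand, with matches that begin 104 and 85 bases before the start. Igtp, an immunity-related GTPase, has its window at chr11:58199306-58199605 on the plus strand, with 1 match that begins 34 bases before the start. Gbp2, a guanylate-binding GTPase, has its window at chr3:142620413-142620712 on the plus strand, with 1 match that begins 59 bases before the start.
Ifit1: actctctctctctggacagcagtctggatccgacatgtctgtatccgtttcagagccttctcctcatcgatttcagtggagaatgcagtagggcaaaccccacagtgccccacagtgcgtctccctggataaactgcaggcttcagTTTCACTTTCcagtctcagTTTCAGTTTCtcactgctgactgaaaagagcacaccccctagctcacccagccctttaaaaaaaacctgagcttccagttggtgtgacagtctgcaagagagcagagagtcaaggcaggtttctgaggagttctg
Igtp: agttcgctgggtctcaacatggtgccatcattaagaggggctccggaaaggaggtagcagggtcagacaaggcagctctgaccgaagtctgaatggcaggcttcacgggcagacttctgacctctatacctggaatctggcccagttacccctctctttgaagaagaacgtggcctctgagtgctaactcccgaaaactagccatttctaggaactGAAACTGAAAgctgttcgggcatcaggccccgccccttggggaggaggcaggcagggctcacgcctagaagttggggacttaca
Gbp2: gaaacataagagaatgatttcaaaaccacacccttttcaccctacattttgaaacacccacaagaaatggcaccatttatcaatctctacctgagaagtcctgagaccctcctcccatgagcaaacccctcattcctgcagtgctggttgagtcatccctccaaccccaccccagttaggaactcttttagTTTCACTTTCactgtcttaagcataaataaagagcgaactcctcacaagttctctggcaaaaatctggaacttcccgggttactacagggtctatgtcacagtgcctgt

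Isg15, the ubiquitin-like modifier, and Bst2 (tetherin), which holds virus particles at the cell surface, are shown as members with adjoining matches. The Isg15 window is chr4:156200769-156201068 on the minus strand, with matches that begin 78, 72 and 66 bases before the start. The Bst2 window is chr8:71537423-71537722 on the minus strand, with matches that begin 130 and 124 bases before the start. Trim25, the ubiquitin ligase that acts on the RNA sensor RIG-I, is shown as a member without a match. Its window is chr11:88999153-88999452 on the plus strand.
Isg15: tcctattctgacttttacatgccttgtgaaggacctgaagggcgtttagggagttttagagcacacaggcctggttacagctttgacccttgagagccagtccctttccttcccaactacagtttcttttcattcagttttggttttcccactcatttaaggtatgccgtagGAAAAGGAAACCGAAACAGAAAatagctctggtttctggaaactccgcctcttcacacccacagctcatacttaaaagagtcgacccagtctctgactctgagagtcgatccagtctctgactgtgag
Bst2: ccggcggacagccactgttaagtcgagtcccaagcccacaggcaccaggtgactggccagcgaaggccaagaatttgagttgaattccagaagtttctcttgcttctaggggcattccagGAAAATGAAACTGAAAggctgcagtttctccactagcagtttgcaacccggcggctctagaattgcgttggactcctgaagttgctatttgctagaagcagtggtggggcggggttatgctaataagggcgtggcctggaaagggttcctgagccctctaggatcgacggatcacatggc
Trim25: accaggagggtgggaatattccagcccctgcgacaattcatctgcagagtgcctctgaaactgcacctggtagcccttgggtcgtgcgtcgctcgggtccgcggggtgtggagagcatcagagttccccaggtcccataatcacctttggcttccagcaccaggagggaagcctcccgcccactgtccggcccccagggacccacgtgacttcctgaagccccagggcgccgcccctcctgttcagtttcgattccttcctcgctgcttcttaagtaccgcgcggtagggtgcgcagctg

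Depth was 928906 to 2469454 counts per library in 162 libraries. The other 2 libraries, number 1 of IL-1β 50 µM 30 min and number 1 of TNF-α 50 µM 120 min, had 12191 and 3839 counts and were kept in the tests but left out of the levels and ranges. Levels are given in CPM, the counts scaled to one common library size, and 3 counts equalled 1.17 to 3.4 CPM in the 162 libraries. The fibroblast label was checked on markers. All 12 fibroblast markers averaged at least 5 CPM, and their sum was 7080 to 11400 CPM. Of 9 macrophage and leukocyte markers 8 were in the table and 1, Lyz2, averaged at least 5 CPM (6.42), with a summed level of 6.81 to 35.5 CPM. Of 8 epithelial and endothelial markers 7 were in the table and none averaged 5 CPM, with a sum of 0.746 to 26 CPM. In bulk RNA a change in the number of responding cells and a change in RNA per cell cannot be told apart.

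All 38 members had counts in the unstimulated cells, and their levels summed to 2674, 3904, 3827 and 2948 CPM in the 4 unstimulated libraries. The summed level of the members had its highest group medians at 360 min under IL-1β with SC-514, 10280 CPM at 50 µM and 8614 CPM at 100 µM. In the group labelled TNF-α without SC-514 the median at 360 min was 6282 CPM. The lowest group median, 2187 CPM, was that of TNF-α 100 µM at 15 min. Of the 38 members 28 had their highest group mean in IL-1β 50 µM 360 min, and 5 (Irf9, Stat2, Zbp1, Oas2 and Xaf1) in TNF-α 0 µM 360 min.

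**Figure D1:**
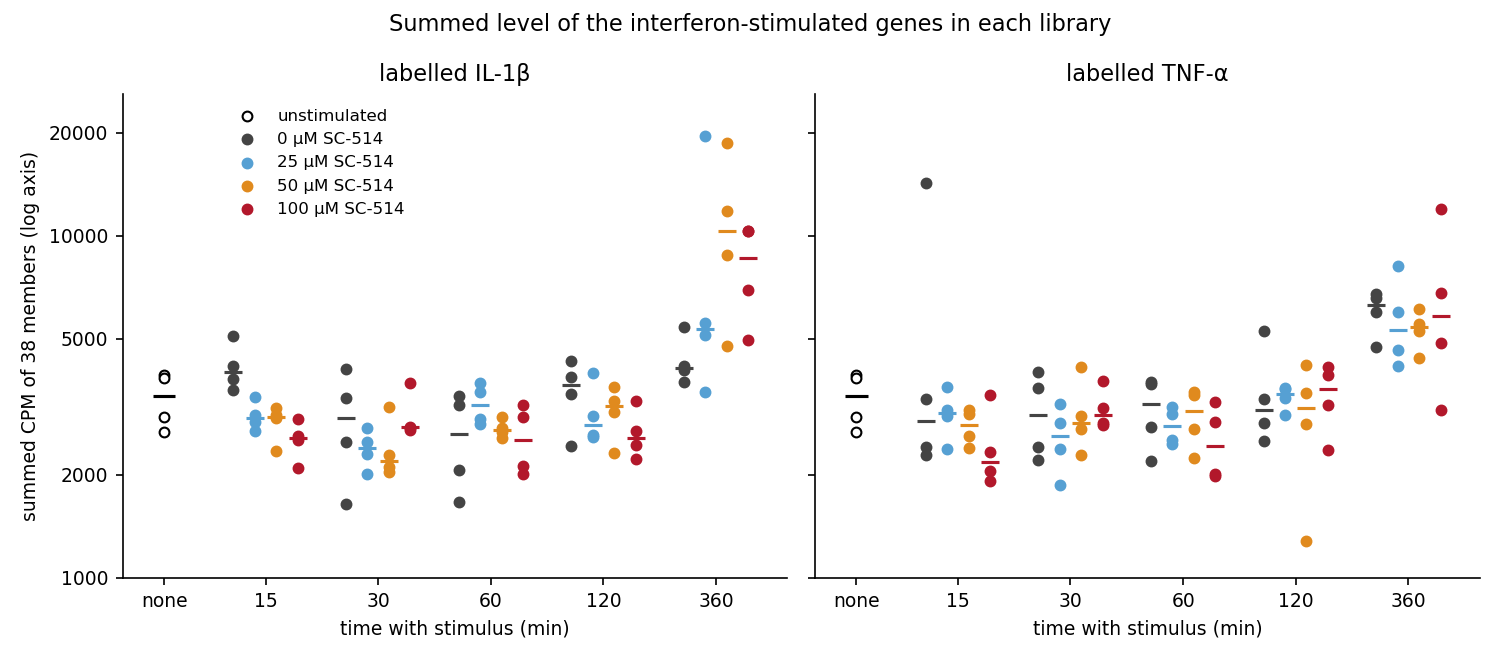
Summed level of the 38 interferon-stimulated genes in CPM (log axis) in each library, by time with stimulus (min), with unstimulated libraries at the left of each panel and colours for the SC-514 concentration. The unstimulated libraries lie at 2674 to 3904 CPM, and single libraries reach 14204 CPM (labelled TNF-α, 0 µM, 15 min) and 19575 CPM (labelled IL-1β, 25 µM, 360 min).

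Single libraries stood apart before any comparison is made. In the TNF-α 0 µM 15 min group the summed level was 2285, 3340 and 2413 CPM in numbers 1 to 3 and 14204 CPM in number 4. In the IL-1β 25 µM 360 min group it was 19575 CPM in number 1 and 5109, 3488 and 5535 CPM in numbers 2 to 4. In each of these libraries all 38 members were the highest of their group.

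Rsad2 showed this most clearly, with 16, 24.3 and 12.4 CPM in numbers 1 to 3 of TNF-α 0 µM 15 min and 815 CPM in number 4. Against the median of the other 3 libraries, on a log2(CPM + 1) scale, the members were higher in that library by a median of 2.41 (0.56 to 5.59, the last of these for Rsad2). In number 1 of IL-1β 25 µM 360 min they were higher by a median of 1.84 (0.46 to 3.49). The order of the members was similar in both libraries, with a Spearman correlation of 0.84 across the 38 genes, which are not independent of each other and share each library. The summed level of 11 NF-κB response genes was 4140 CPM in the first of these libraries, against 2360, 2620 and 2810 CPM in its group, and 6780 CPM in the second, against 4710, 5220 and 4880 CPM. Macrophage and leukocyte markers summed to 19 and 9.22 CPM there, inside the range of the other libraries, and mitochondrial transcripts made up 0.651% and 0.594% of counts. The part of the NF-κB genes in these values was not tested. Test results that rest on either library are given with and without it. Group means, ranges of levels and within-group SDs include both libraries. The highest group means of Oasl1 and Bst2 come from the groups of these libraries.

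**Figure D2:**
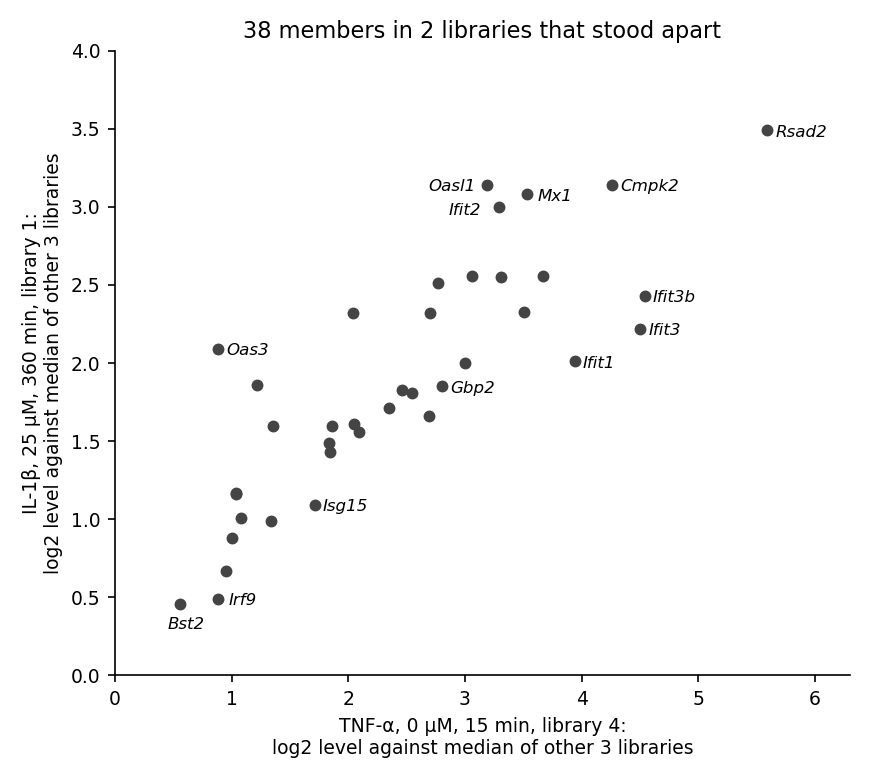
Each point is 1 of the 38 members, placed by its log2 level in number 4 of TNF-α 0 µM 15 min (x) and in number 1 of IL-1β 25 µM 360 min (y) against the median of the other 3 libraries of the same group. All 38 points lie above 0 on both axes, with Rsad2 at 5.59 on the x axis.

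The spread between libraries of a group was wider for these genes than for most genes. The within-group SD of log2(CPM + 1) had a median of 0.457 over the 38 members, 0.23 over all 10766 genes tested and 0.233 over 9777 genes in the members' range of levels. Rsad2 varied most, with an SD of 1, followed by Ifit3b with 0.803 and Ifit3 with 0.759. Bst2 varied least, with 0.209, and Ifi35 (0.243), Irf9 (0.251), Trim25 (0.257) and Xaf1 (0.265) were also among the least variable members.

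Members deviated from their group means together. Over the 703 pairs of members the correlation of these deviations across libraries had a median of 0.77, and all 703 were positive, against a median near 0 over pairs of all genes tested. Without the 2 libraries that stood apart the median was 0.7, and all 703 pairs were again above 0. The pair Rsad2 and Ifit1 had a correlation of 0.9, and the neighbours Rsad2 and Cmpk2 had 0.8. The lowest value was 0.15, for Oasl1 and Bst2. These values describe libraries that share depth and scaling. Ifit3 and Ifit3b (0.95) are near-identical copies whose reads may be split between them, and Igtp overlaps Irgm2 (0.9) while Dtx3l overlaps Parp9 on the opposite strand (0.77), so the separate values of these pairs are uncertain.

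Levels are next given by role, as the range of group means over the 41 groups. Among the transcription factors and feedback genes, Irf7, the factor that amplifies interferon production, had group means of 39.7 to 114 CPM. Irf9, the DNA-binding subunit of ISGF3, had 42 to 105 CPM, and Stat2, its transactivating subunit, had 25.2 to 116 CPM. Usp18, which removes Isg15 from proteins and blocks the receptor, had 57.2 to 398 CPM. Among the sensors, Ddx58 (RIG-I) covered a narrow range of 58 to 99.1 CPM and was not called in any of the 38 comparisons. The other RNA sensors Ifih1 (MDA5) and Dhx58 (LGP2) had 35 to 184 CPM and 23.1 to 53.5 CPM. The nucleic acid sensor Zbp1 had 35.9 to 67.7 CPM, and Trim25 had 86.8 to 237 CPM.

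The IFIT genes, a cluster on chromosome 19 whose proteins block translation of foreign RNA, covered wide ranges. Ifit1 had group means of 65.1 to 1230 CPM, Ifit2 19 to 295, Ifit3 51.6 to 822 and Ifit3b 19.5 to 485 CPM. The OAS genes, most of whose enzymes make the activator of RNase L, mostly covered narrower ranges. Oas1a had 24 to 52.1 CPM, Oas2 17.8 to 46.2 and Oasl2 68 to 188. Oas3 (5.61 to 13.7 CPM) and Oasl1 (0.824 to 18.9 CPM) lay near the limit that depth sets in many libraries.

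Among the GTPases, Mx1, which blocks influenza-type viruses, had 11.9 to 134 CPM, and Mx2, annotated as a polymorphic pseudogene in GENCODE M21, had 9.3 to 81.7 CPM. The guanylate-binding proteins Gbp2, Gbp3 and Gbp7 lie side by side on chromosome 3 and had 54 to 323, 60.8 to 190 and 50.4 to 274 CPM. The immunity-related GTPases, which attack the vacuoles of intracellular parasites, had wider ranges, with Igtp at 32.9 to 355, Irgm1 at 55.7 to 338, Irgm2 at 22.6 to 246 and Iigp1 at 74.6 to 796 CPM.

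Of the other effectors, Rsad2 had the widest range of all members, 15.5 to 817 CPM or 52.7-fold, and its neighbour Cmpk2 had 9.93 to 337 CPM. Isg15 had 180 to 492 CPM and Bst2 256 to 413 CPM, the narrowest relative range with 1.61-fold. The mono-ADP-ribosyltransferases Parp14 and Parp9 had 61.6 to 408 and 69.6 to 179 CPM, and Dtx3l, the ubiquitin ligase that pairs with Parp9, had 32 to 151 CPM. Ifi44 and Ifi35, both interferon-induced proteins, had 143 to 432 and 110 to 219 CPM. Rtp4, a chaperone of membrane receptors, had 41.8 to 198 CPM, and Xaf1, a promoter of cell death, had 119 to 237 CPM. Ddx58, Oas3, Gbp3 and Xaf1 were called in none of 38 comparisons, the other 34 members in at least 1, and Gbp2 and Bst2 in 8 each.

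The first comparison asks which of these genes differed between stimulated cells without the inhibitor and unstimulated cells. Few passed the test, and none before 60 min. How many passed at 360 min of TNF-α depended strongly on the fit, as given below. Gbp2 rose under either label from 120 min on, Ifit1 rose at 360 min, and Usp18, Irf9 and Ifit3b rose at 360 min under TNF-α. Bst2 fell slightly, at 60 min under IL-1β and at 120 min under both. Most members did not pass the test at any time, and none passed it at 15 or 30 min. These differences cannot be told apart from a difference between column sets. Against 15 min of the same label, Gbp2 was called higher under IL-1β and Bst2 lower at 120 min of TNF-α. No other change named here was called there in the same direction, and 60 min was not compared with 15 min. Under TNF-α the count of members called against 15 min depended on 1 library of the 15 min group. Without that library 1 member was still called lower at 120 min.

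A member counts as called when its adjusted p is under 0.05 in edgeR's quasi-likelihood test, with Benjamini-Hochberg adjustment over all 10766 genes. A fit without the filter on low counts called over 1.5 times as many members in 34 of the 38 comparisons. At 15 min edgeR called none of the 38 members under IL-1β, where 0.167% of all genes were called, and none had an unadjusted p under 0.05. Under TNF-α it also called none (0.186% of genes), while 13 had an unadjusted p under 0.05 and DESeq2 called 3. The median log2 difference of the members from unstimulated cells was 0.51 under TNF-α at 15 min, and it was -0.39 without number 4 of that group, again with 0 called. At 30 min edgeR called none under IL-1β (0.929% of genes, 3 members with an unadjusted p under 0.05, 1 called by DESeq2) and none under TNF-α (0.659% of genes, 2 members unadjusted, 0 by DESeq2). At 60 min none was called under TNF-α (5.42% of genes, 1 member unadjusted, 0 by DESeq2).

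Bst2 was the member that fell early. It had 341, 350, 447 and 356 CPM in unstimulated cells and 296, 240, 232 and 286 CPM at 60 min of IL-1β, with no overlap. The log2 difference was -0.50 ± 0.15 (SE; edgeR adjusted p = 0.0342). Bst2 was the only member called lower in that comparison, where 0.622% of genes were called lower. At 120 min it had 293, 237, 276 and 276 CPM under IL-1β (log2 -0.46, edgeR adjusted p = 0.0222), again below every unstimulated library. Under TNF-α it had 221, 335, 217 and 273 CPM at 120 min (log2 -0.52, edgeR adjusted p = 0.00897).

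Gbp2 had 38.8, 65.4, 57.8 and 54.6 CPM in unstimulated cells. At 120 min of IL-1β it had 140, 89.8, 156 and 145 CPM, and at 120 min of TNF-α 151, 132, 156 and 95.2 CPM. Every stimulated library was above every unstimulated one, with log2 differences of 1.30 ± 0.36 (edgeR adjusted p = 0.00583) and 1.32 ± 0.37 (edgeR adjusted p = 0.00555). Gbp2 was the only member called higher at 120 min under either label, while 8.17% and 9.14% of all genes were called higher. Lower calls at 120 min were Bst2 alone under IL-1β (4.36% of genes) and Bst2 and Oas2 under TNF-α (5.11% of genes). Oas2 had 13.4, 19.6, 37.3 and 12.7 CPM there, against 40.9, 48.2, 41.9 and 32.9 CPM in unstimulated cells, with overlap (log2 -0.98, edgeR adjusted p = 0.0292).

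At 360 min of IL-1β 2 members were called higher, Gbp2 and Ifit1, while 12.3% of all genes were called higher. Gbp2 had 220, 149, 169 and 163 CPM (log2 1.71 ± 0.35, edgeR adjusted p = 5.97e-05). Ifit1 had 115, 200, 168 and 105 CPM in unstimulated cells and 477, 309, 343 and 304 CPM at 360 min, again without overlap (log2 1.30 ± 0.49, edgeR adjusted p = 0.0445; DESeq2 adjusted p = 0.0667). No member was called lower, with 9.4% of genes called lower. The median of the members was 0.24, against -0.01 over all genes.

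At 360 min of TNF-α all 38 members had a positive difference, with a median of 0.73, against 0.004 over all genes. Of these 5 were called higher, against 3.62% of genes, and none was called lower (1.8% of genes). In 21 members every stimulated library was above every unstimulated one, which held for 7.11% of genes. Usp18 had 61.8, 120, 96.4 and 74.6 CPM in unstimulated cells and 285, 264, 211 and 226 CPM at 360 min (log2 1.5 ± 0.46, edgeR adjusted p = 0.0339). Ifit1 had 459, 464, 326 and 470 CPM (log2 1.56 ± 0.49, edgeR adjusted p = 0.0372). Both sets of stimulated libraries lay above all unstimulated ones.

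Of Ifit3b and its near-identical copy Ifit3, Ifit3b alone was called. Ifit3b had 25.9, 79.1, 81.3 and 32.9 CPM in unstimulated cells and 242, 250, 146 and 243 CPM at 360 min of TNF-α (log2 2.03 ± 0.55, edgeR adjusted p = 0.0111), while Ifit3 had 85.5, 210, 172 and 97.9 CPM and 497, 445, 277 and 391 CPM (log2 1.53, edgeR adjusted p = 0.0533). Irf9 had 63.9, 68.8, 88.8 and 59.4 CPM and 107, 94.2, 97.6 and 122 CPM (log2 0.59 ± 0.17, edgeR adjusted p = 0.0193). Gbp2 had 197, 191, 137 and 164 CPM (log2 1.69 ± 0.36, edgeR adjusted p = 0.000414). The count of members called ranged from 1 to 3 when 1 library number was left out and was 3 in DESeq2. It was 15 without the 2 libraries that stood apart. A fit of this group and the unstimulated group alone called 26, and a fit without the filter on low counts 28.

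**Figure D3:**
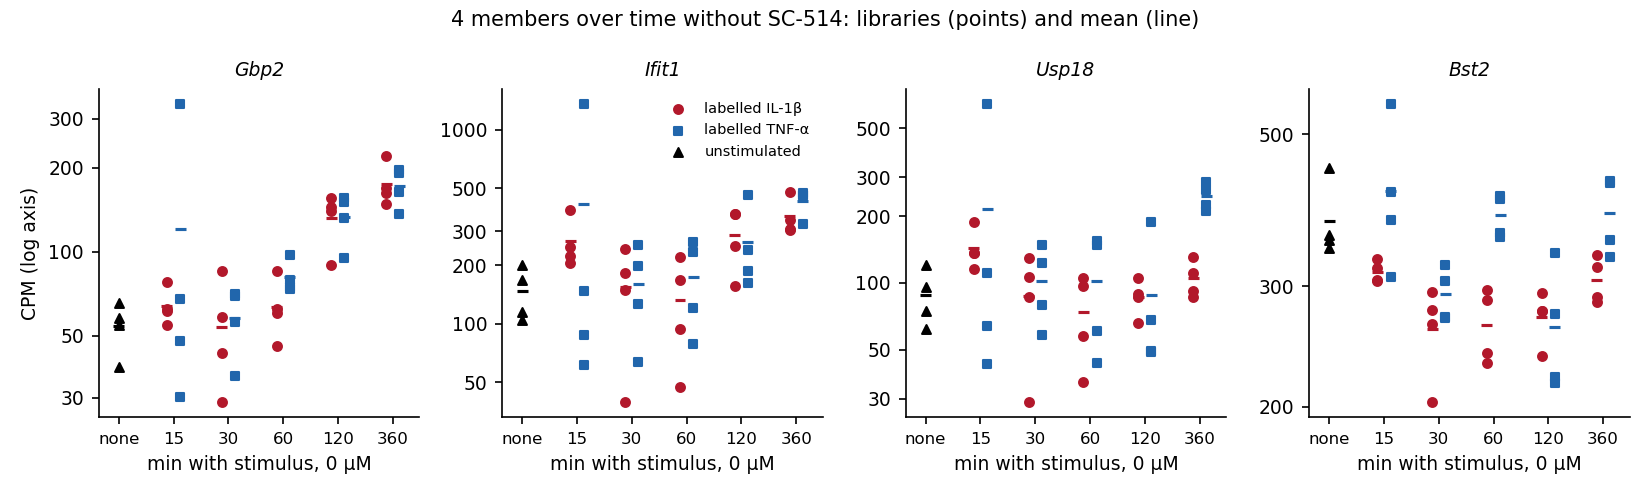
Levels in CPM (log axis) of Gbp2, Ifit1, Usp18 and Bst2 over time (min) without SC-514, with each library as a point and the group mean as a line. Gbp2 lies above the 38.8 to 65.4 CPM of the unstimulated libraries in all libraries at 120 and 360 min, and Usp18 reaches 211 to 285 CPM at 360 min under TNF-α.

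The comparison of late times with 15 min uses libraries with 1 column prefix only. Under IL-1β Gbp2 alone was called higher, at 120 min (log2 1.05 ± 0.35, edgeR adjusted p = 0.0377, 6.27% of genes) and at 360 min (log2 1.46 ± 0.34, edgeR adjusted p = 0.000667, 8.9% of genes). Under TNF-α 6 members were called lower at 120 than at 15 min (5.14% of genes): Rsad2, Cmpk2, Ifit3b, Igtp, Iigp1 and Bst2. That count rests on number 4 of TNF-α 0 µM 15 min. Without it, Rsad2 differed by 1.02 in place of -2.60 and Cmpk2 by 0.57 in place of -1.82, and 2 members were called higher and 1 lower. At 360 against 15 min under TNF-α edgeR called none (2.54% of genes, 3 members with an unadjusted p under 0.05, 0 by DESeq2), and 16 were called higher without that library.

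Next, SC-514 at 100 µM was compared with 0 µM under each stimulus. At 15 min of IL-1β 9 members were lower with the inhibitor and none higher. Ifit1, Ifit3 and Ifit3b, the immunity-related GTPases Iigp1, Irgm1 and Irgm2, and Trim25, Rtp4 and Oasl2 made up this set. At 30 to 120 min of IL-1β few members were called. Trim25 was again lower at 30 and 120 min, and Rtp4 and Ifit1 at 120 min.

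Trim25 had 176, 219, 201 and 165 CPM at 15 min of IL-1β without SC-514 and 93.2, 74.3, 97.3 and 129 CPM at 100 µM. The groups did not overlap, and the log2 difference was -0.94 ± 0.19 (edgeR adjusted p = 4.08e-05). At 25 µM Trim25 had 95.5, 101, 104 and 94.3 CPM and at 50 µM 116, 88.8, 93.6 and 97.7 CPM, also below every library at 0 µM. At 30 min it had 186, 150, 156 and 122 CPM at 0 µM and 86.5, 88, 81.3 and 112 CPM at 100 µM (log2 -0.73 ± 0.20, edgeR adjusted p = 0.00346), where it was the only member called lower (12.5% of genes were). At 120 min the values were 167, 124, 178 and 151 CPM and 77.4, 91.1, 93.7 and 96.7 CPM (log2 -0.79 ± 0.20, edgeR adjusted p = 0.00131).

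Rtp4 had 128, 115, 112 and 120 CPM at 15 min of IL-1β and 52.6, 50.8, 59.2 and 64.9 CPM with 100 µM SC-514 (log2 -1.06 ± 0.27, edgeR adjusted p = 0.00151). Ifit1 had 205, 388, 250 and 223 CPM and 71.8, 64.4, 74.6 and 124 CPM (log2 -1.66 ± 0.53, edgeR adjusted p = 0.0139). Iigp1 had 198, 359, 263 and 230 CPM and 86, 64.4, 68.1 and 113 CPM (log2 -1.65 ± 0.49, edgeR adjusted p = 0.00765). None of these groups overlapped. Ifit3b (-1.84), Ifit3 (-1.75), Irgm2 (-1.42), Irgm1 (-1.23) and Oasl2 (-0.81) were the other members called lower on the log2 scale.

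The 9 lower calls stand against 13.6% of genes called lower, and in 22 members every library at 100 µM was below every library at 0 µM, against 13.9% of genes. The median of the members was -0.59, against 0.004 over all genes. The count was 3 to 8 when 1 library number was left out. At 15 min without SC-514 none of the 38 had been called against unstimulated cells, and Ifit1 at 100 µM (64.4 to 124 CPM) lay below or among its unstimulated values of 105 to 200 CPM. No group had SC-514 alone, so an effect of the compound on the level before stimulation cannot be told apart from one on the response.

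At 60 min of IL-1β edgeR called no member (25.9% of genes were called in either direction, 2 members had an unadjusted p under 0.05, and DESeq2 called 0). At 120 min Trim25, Rtp4 and Ifit1 were called lower (16.2% of genes). Rtp4 had 133, 74.8, 135 and 109 CPM at 0 µM and 43.4, 94.9, 57.8 and 46.8 CPM at 100 µM, with overlap (log2 -0.88, edgeR adjusted p = 0.0113). Ifit1 had 370, 156, 370 and 251 CPM and 66.1, 186, 112 and 96.7 CPM, also with overlap (log2 -1.30, edgeR adjusted p = 0.0496).

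Under TNF-α at 15 min 21 members were called lower with 100 µM SC-514 (13.2% of genes), with a median of -0.93 over the 38. These calls rest on number 4 of the 0 µM group. Rsad2 had 16, 24.3, 12.4 and 815 CPM at 0 µM and 19.5, 19.1, 5.67 and 27 CPM at 100 µM, so the groups overlapped except for that library. Its log2 difference was -3.59 with all libraries and 0.03 without it (edgeR adjusted p = 0.993). Without it no member was called and the median was -0.03.

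Only in Cmpk2 and Trim25 was every library at 100 µM below every library at 0 µM at 15 min of TNF-α, against 12.3% of genes. Trim25 had 149, 156, 130 and 316 CPM at 0 µM and 104, 112, 96.4 and 95.9 CPM at 100 µM (log2 -0.88 ± 0.19, edgeR adjusted p = 0.000104). Without number 4 its difference was -0.51 (edgeR adjusted p = 0.0543). Cmpk2 had 18.4, 27.8, 19.5 and 393 CPM and 10, 9.94, 13.9 and 13.2 CPM (log2 -3.26), and -0.87 without number 4 (edgeR adjusted p = 0.538).

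At 30 min of TNF-α edgeR called no member (17.9% of genes in either direction, 1 member with an unadjusted p under 0.05, 0 by DESeq2), and at 60 min none (22% of genes, 4 members unadjusted, 0 by DESeq2). At 120 min Bst2 alone was called higher (11.5% of genes). It had 221, 335, 217 and 273 CPM at 0 µM and 339, 392, 338 and 297 CPM at 100 µM, with overlap (log2 0.40, edgeR adjusted p = 0.0378).

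**Figure D4:**
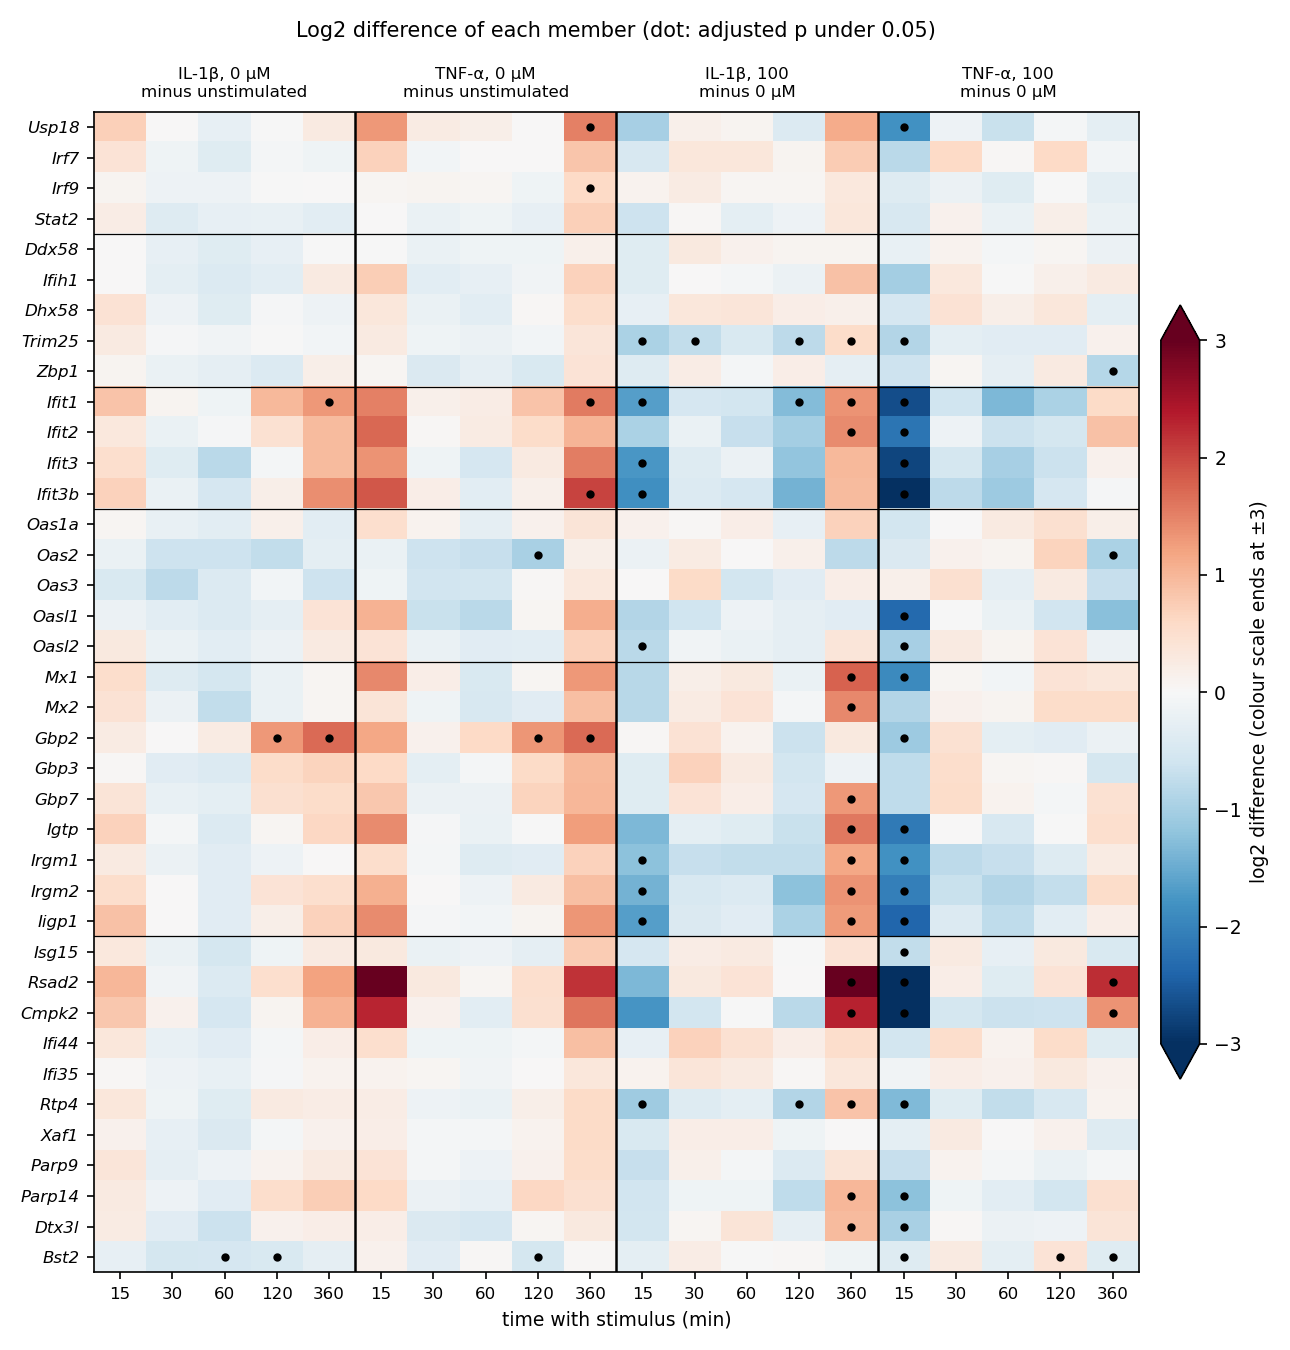
Log2 difference of each of the 38 members (rows, by role) in 20 comparisons (columns, by time in min), in red where higher and in blue where lower, with a dot where the edgeR adjusted p was under 0.05. The dots gather in the columns of 100 against 0 µM SC-514, with 15 members higher at 360 min of IL-1β, 9 lower at 15 min of IL-1β and 21 lower at 15 min of TNF-α, the last set resting on 1 library.

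At 360 min of IL-1β the direction was the opposite one. With 100 µM SC-514 15 members were higher and none lower, led by Rsad2 and Cmpk2. The GTPases made up the largest share, with Mx1, Mx2, Igtp, Irgm1, Irgm2, Iigp1 and Gbp7 all called higher, 7 of 9. Ifit1 and Ifit2 also rose, while none of the 5 OAS genes and none of the 4 transcription factors and feedback genes passed the test.

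Rsad2 had 73.4, 46.8, 53.3 and 57.4 CPM at 360 min of IL-1β without SC-514. With 100 µM it had 969, 366, 908 and 554 CPM, all above every library at 0 µM (log2 3.60 ± 0.63, edgeR adjusted p = 2.13e-06). Cmpk2 had 55.3, 46.8, 46.6 and 44.9 CPM and 351, 106, 309 and 204 CPM, also without overlap (log2 2.32 ± 0.50, edgeR adjusted p = 0.000122). Igtp had 126, 85.3, 65 and 69.9 CPM and 345, 138, 341 and 219 CPM (log2 1.59 ± 0.42, edgeR adjusted p = 0.00183). Mx1 had 23.1, 23.8, 24.2 and 20 CPM and 129, 25.3, 100 and 55.5 CPM (log2 1.77 ± 0.56, edgeR adjusted p = 0.0096). Number 2 was the lowest of the 100 µM libraries for each of these genes, and the groups did not overlap in any of them.

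Ifit1 had 477, 309, 343 and 304 CPM at 0 µM and 1200, 527, 1200 and 691 CPM at 100 µM (log2 1.34 ± 0.43, edgeR adjusted p = 0.0121), and Ifit2 differed by 1.42 and Mx2 by 1.45. Irgm2 (1.34), Gbp7 (1.31), Iigp1 (1.27), Irgm1 (1.16), Parp14 (0.99), Dtx3l (0.95), Rtp4 (0.85) and Trim25 (0.54) were the other members called higher on the log2 scale. Ifit1, Iigp1, Irgm1, Irgm2, Rtp4 and Trim25 had been called lower with 100 µM at 15 min. Members that did not pass included Usp18, with 131, 86.1, 111 and 92.3 CPM at 0 µM and 266, 113, 320 and 215 CPM at 100 µM (log2 1.12, edgeR adjusted p = 0.0504). Oas2 had a log2 difference of -0.78 (edgeR adjusted p = 0.0763), and Isg15 one of 0.42 (edgeR adjusted p = 0.227).

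The 15 higher calls stand against 13.9% of genes called higher, and the 0 lower calls against 15.7% of genes. In 13 members every library at 100 µM was above every library at 0 µM, against 10.4% of genes. The median was 0.71, against 0.036 over all genes, and 33 of 38 differences were positive. The share of higher among all genes called was 46.9% with TMM scaling and 63.6% with the RLE factors, under which 18 members were called higher. The count was 6 without number 3 and 13 to 15 without each of the others. Among the 162 libraries of full depth, number 1 of the 100 µM group also had the highest summed macrophage and leukocyte markers (35.5 CPM). The same held for its epithelial and endothelial markers (26 CPM), and 13 members were called without number 1.

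With 50 µM SC-514 at 360 min of IL-1β 27 members were higher and none lower (5.75% of genes were called higher), and all 38 differences were positive, with a median of 1.13 against 0.007 over all genes. Rsad2 had 1760, 173, 777 and 558 CPM (log2 3.82 ± 0.63, edgeR adjusted p = 1.35e-06), and Cmpk2 had 728, 81.3, 344 and 196 CPM (log2 2.79 ± 0.49). Every one of these libraries was above those at 0 µM. Mx1 (2.54), Ifit2 (2.26), Igtp (2.03) and Usp18 (1.91) followed on the log2 scale, and the factors Irf7 (1.24, edgeR adjusted p = 0.0128) and Stat2 (0.84, edgeR adjusted p = 0.0435) also rose. All 4 IFIT genes, 8 of 9 GTPases, 3 of 5 sensors and 1 of 5 OAS genes were called higher. In 7 members no library overlapped, against 6.46% of genes. Number 1 had the highest level of all 38 members and number 2 a summed level of 4764 CPM, inside the 3728 to 5401 CPM of the 0 µM group. The count was 16 without number 1 and 17 without number 3, and a fit of these 2 groups alone called 3.

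At 25 µM the calls rested on 1 library. With all libraries 13 members were called higher (1.87% of genes), with a median of 0.88, and in no member were all libraries at 25 µM above those at 0 µM. Rsad2 had 1720, 152, 50.2 and 184 CPM (log2 3.18 ± 0.64, edgeR adjusted p = 0.000312). Without number 1 of this group none was called and the median was 0.12. Without both libraries that stood apart Rsad2 differed by 1.16 (edgeR adjusted p = 0.321). Number 1 also had the highest summed level of the members in the other IL-1β groups at 360 min. It had 5401 CPM at 0 µM, 18606 CPM at 50 µM and 10344 CPM at 100 µM, where number 3 had 10317 CPM. Under TNF-α at 360 min number 1 was highest at 0, 25 and 50 µM (6748, 8126 and 6095 CPM), and number 3 at 100 µM (11971 CPM).

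**Figure D5:**
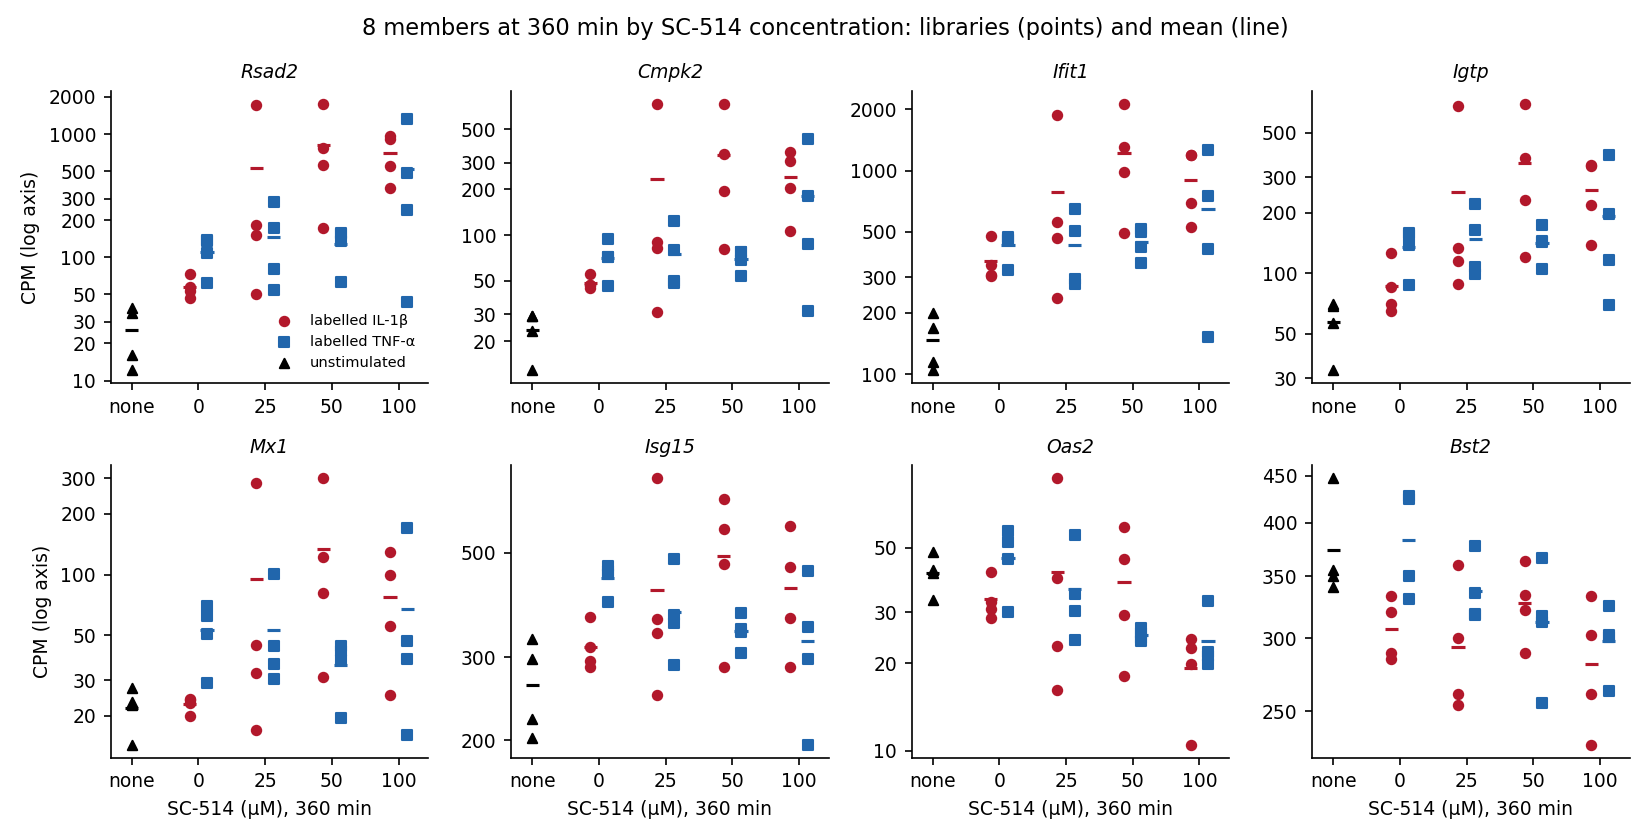
Levels in CPM (log axis) of 8 members at 360 min by SC-514 concentration (µM), with libraries as points and group means as lines, and unstimulated libraries at the left. Under IL-1β Rsad2 lies at 46.8 to 73.4 CPM at 0 µM and at 366 to 969 CPM at 100 µM, and under TNF-α it spreads from 43.1 to 1320 CPM at 100 µM.

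Under TNF-α at 360 min few members were called with SC-514, and in both directions. With 100 µM Rsad2 and Cmpk2 were called higher (11.3% of genes) and Oas2, Zbp1 and Bst2 lower (15.4% of genes). The median over the 38 was 0.04, against 0.018 over all genes. Rsad2 had 139, 136, 61.9 and 109 CPM at 0 µM and 243, 43.1, 1320 and 480 CPM at 100 µM, with overlap (log2 2.21 ± 0.58, edgeR adjusted p = 0.0018). Cmpk2 had 94.6, 71.2, 46.4 and 71.3 CPM and 87.1, 31.5, 429 and 181 CPM, also with overlap (log2 1.34 ± 0.48, edgeR adjusted p = 0.0254).

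Number 3 was the highest library for both genes, with a summed level of 11971 CPM over the members. Without number 3 Rsad2 differed by 0.99 (edgeR adjusted p = 0.331) and Cmpk2 by 0.33 (edgeR adjusted p = 0.753). Zbp1 had 66.6, 90.2, 58 and 56.1 CPM at 0 µM and 36.5, 31.5, 43.9 and 37.5 CPM at 100 µM, without overlap (log2 -0.85 ± 0.22, edgeR adjusted p = 0.00175). Oas2 had 56.9, 52.1, 30 and 45.6 CPM and 21.8, 19.9, 32.8 and 21.1 CPM, where number 3 overlapped (log2 -0.96, edgeR adjusted p = 0.00686). Bst2 had 425, 428, 331 and 350 CPM and 302, 301, 325 and 263 CPM (log2 -0.37, edgeR adjusted p = 0.048; DESeq2 adjusted p = 0.249). With the RLE factors the median of all genes moved from 0.02 to 0.14, the share of higher among all calls from 42.4% to 68.7%, and 2 members were called higher and 2 lower.

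The lower concentrations gave smaller sets under TNF-α. At 25 µM edgeR called no member (2.72% of genes in either direction, 1 member with an unadjusted p under 0.05, 0 by DESeq2), and Rsad2 had 281, 80.2, 173 and 53.9 CPM. At 50 µM Oas2 and Zbp1 were called lower (7.07% of genes), and DESeq2 called neither. Oas2 had 26.5, 23.9, 24.4 and 25.4 CPM (log2 -0.89, edgeR adjusted p = 0.0455) and Zbp1 45.1, 41.7, 39.3 and 37.7 CPM (log2 -0.71, edgeR adjusted p = 0.033), all below every library at 0 µM. With the RLE factors neither was called.

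The stimuli were then compared with each other without SC-514. Up to 120 min 1 member was called, Bst2 at 60 min. At 360 min 2 members, Stat2 and Irf9, were called lower under IL-1β than under TNF-α, where 3.67% of genes were. The count was 0 without number 2 or without number 4. These libraries also differ in column prefix throughout.

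At 15 min edgeR called no member (0.0372% of genes, 7 members with an unadjusted p under 0.05, 0 by DESeq2), at 30 min none (0.186% of genes, 0 unadjusted, 0 by DESeq2) and at 120 min none (1.02% of genes, 0 unadjusted, 0 by DESeq2). At 60 min Bst2 was the only member called lower under IL-1β (1.12% of genes), with 296, 240, 232 and 286 CPM against 407, 354, 403 and 359 CPM under TNF-α (log2 -0.53, edgeR adjusted p = 0.0462; DESeq2 adjusted p = 0.0622). The call was lost with RLE factors, without number 1 of IL-1β 25 µM 360 min and when any 1 library number was left out.

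At 360 min Stat2 had 79.2, 48.4, 55.8 and 45.7 CPM under IL-1β and 129, 135, 87 and 113 CPM under TNF-α (log2 -1.02 ± 0.30, edgeR adjusted p = 0.0143). Irf9 had 83.3, 59.1, 65 and 73.2 CPM and 107, 94.2, 97.6 and 122 CPM (log2 -0.59 ± 0.17, edgeR adjusted p = 0.0129). Neither pair of groups overlapped. Usp18 had 131, 86.1, 111 and 92.3 CPM and 285, 264, 211 and 226 CPM, without overlap but with an edgeR adjusted p of 0.0708 (log2 -1.23). Stat2 and Irf9 were the 2 lower calls among the 38, against 3.67% of genes, and in 15 members every library under IL-1β was below every library under TNF-α, against 6.12% of genes. The median was -0.48, with 2 differences above 0. The count was 0 to 2 when 1 number was left out.

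Whether the effect of 100 µM SC-514 differed between the stimuli was tested as an interaction. edgeR called no member at 15 min (0.149% of genes, 2 members with an unadjusted p under 0.05), 30 min (0.0557% of genes, 0 unadjusted), 60 min (0.697% of genes, 0 unadjusted), 120 min (1.07% of genes, 0 unadjusted) or 360 min (1.98% of genes, 6 unadjusted), and DESeq2 called 0 at each time. At 360 min all 38 interaction terms were positive, meaning higher under IL-1β, with a median of 0.69. Irf9 had the smallest adjusted p of the members, with an interaction of 0.61 ± 0.23 (edgeR adjusted p = 0.159). The difference between 15 called members under IL-1β and 2 under TNF-α is therefore not itself past the test.

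Other genes of the pathway were described through lists. Of 32 genes of interferon signalling 24 were tested, and of 78 further interferon-responsive genes 70. At 360 min of IL-1β 10 signalling genes were higher and none lower than in unstimulated cells, and 12 responsive genes were higher and 1 lower, where 12.3% of all genes were higher and 9.4% lower. At 360 min of TNF-α the counts were 3 signalling genes and 7 responsive genes higher and none lower, where 3.62% of all genes were higher and 1.8% lower. Jak2, a kinase of the interferon-γ receptor, rose from a mean of 82.9 to 223 CPM at 360 min of IL-1β (log2 1.42, edgeR adjusted p = 7.96e-21), and Ccl5, a chemokine, from 28.2 to 398 CPM (log2 3.82, edgeR adjusted p = 1.28e-23). Under TNF-α Ccl5 rose to 185 CPM (log2 2.72, edgeR adjusted p = 1.9e-12) and Cxcl9, a chemokine usually driven by interferon-γ, from 1.41 to 48.3 CPM (log2 5.01, edgeR adjusted p = 3.21e-08).

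With 50 µM SC-514 at 360 min of IL-1β 35 of the 70 responsive genes were higher and none lower, where 5.75% of all genes were higher. With 100 µM 15 of the 70 were higher and 6 lower, where 13.9% of all genes were higher and 15.7% lower. Cd274, which encodes PD-L1, had 5.78, 3.28, 5 and 4.16 CPM at 0 µM and 38.9, 21.8, 37.7 and 21.7 CPM at 100 µM (log2 2.70, edgeR adjusted p = 2.9e-05). Znfx1, an RNA helicase-like sensor, had means of 30.4 and 85.5 CPM (log2 1.49, edgeR adjusted p = 0.000188). At 15 min of IL-1β 14 of the 70 were lower with 100 µM and 1 higher, where 13.6% of all genes tested were lower. Of the 2670 genes called there in either direction, 45.3% were higher, which is a share of calls and not of genes tested. Of the 11 NF-κB response genes all were higher at 360 min of IL-1β than in unstimulated cells, and with 100 µM SC-514 1 was higher and 4 lower than at 0 µM.

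Irf1, Nfkbia and Tnfaip3, given as context for the pathway, were called higher at 60 min. Irf1, a transcription factor that NF-κB induces, had 110, 117, 105 and 94.7 CPM in unstimulated cells and 767, 625, 694 and 663 CPM at 60 min of IL-1β (log2 2.69, edgeR adjusted p = 1.51e-24). Under TNF-α it had 995, 1090, 1070 and 1060 CPM (log2 3.3). Nfkbia and Tnfaip3, which encode NF-κB inhibitors, rose at 60 min by 3.50 and 6.14 on the log2 scale under IL-1β and by 3.94 and 6.80 under TNF-α. With 100 µM SC-514 at 60 min of IL-1β Irf1 was lower by a log2 difference of -0.86 (edgeR adjusted p = 1.71e-05) and Tnfaip3 by -1.95. None of the 38 members was called in that comparison.

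At 360 min of IL-1β Cxcl10, a chemokine that NF-κB and interferon factors both drive, had 846, 563, 439 and 493 CPM at 0 µM and 1860, 966, 1890 and 1100 CPM at 100 µM of SC-514, without overlap (log2 1.31, edgeR adjusted p = 0.0169). Number 2 was the lowest of the 100 µM libraries for Cxcl10, as it was for Rsad2.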

How the data were processed

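TagSeq libraries of 3T3 fibroblasts were aligned with Bowtie2 to GRCm38 (mm10), per the submitters' processing notes. The sources used here do not give the counting tool, annotation or strand setting. The deposited table holds raw read counts per gene, made by the authors, for 22070 genes in 164 columns. The 656 sample records are 4 records per column, so every test ran over columns, called libraries. All 164 columns were used, and 0 of 246 pairs of columns within groups were identical. Gene symbols came from a reference name table (21858 matched, 212 did not, of which 29 were tested), positions from GENCODE M21 and promoters from RefSeq.

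The members and all gene lists were chosen with earlier results of these data known. Counts were tested with edgeR 4.0.16 (limma 3.58.1, R 4.3.3) after filterByExpr and TMM scaling (factors 0.934 to 1.08, up to 2.44 in the shallow libraries). There was 1 robust quasi-likelihood fit over 41 groups (123 residual degrees of freedom, common biological coefficient of variation 0.0799). The method was tried on simulated data with independent libraries, 1 spread near the common one for all genes and no library apart. The members had coefficients of 0.137 to 0.663 and deviated together, so that trial does not cover them. P-values were adjusted by Benjamini-Hochberg over the 10766 genes in each comparison, at 0.05. Log2 differences are those of this fit. The SE given with them is the absolute log2 difference divided by the square root of the F statistic of its test. Values in CPM are counts scaled by effective library size. Named members had an adjusted p under 0.05 and at least 5 CPM in the higher group, up to 6 per direction by log2 difference. Others are named by role. From the lists, up to 4 genes with the smallest adjusted p per comparison could be named. Alternatives were DESeq2 1.42.0, RLE factors, no filter, the library number as a block, the compared groups alone and libraries left out. Depth was 928906 to 2469454 counts per library (median 1282459), and values at low counts cover counting error as well as the spread between libraries. One gene of the lists is not reported here.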

Additional observations from a re-analysis of the deposited data

Results flagged for a closer look

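In 3 of 41 groups a library had a summed level of the 38 members far from the other 3. Chance alone flags about 1 in 20 groups where values are normally distributed, and the levels in CPM were used here without a log. Number 1 of IL-1β 25 µM 360 min had 19575 CPM, against 3488 to 5535 CPM in numbers 2 to 4. Number 4 of TNF-α 0 µM 15 min had 14204 CPM, against 2285 to 3340 CPM in numbers 1 to 3. Number 4 of IL-1β 100 µM 30 min had 3717 CPM, against 2698 to 2754 CPM, so its group lay close together and it differed by much less than the other libraries named here. Over single members and groups, a gap of this kind was found in 140 of 1558 cases (8.99%). The highest library was apart in 112 of them and the lowest in 28. The 2 shallow libraries were included in these counts of gaps.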

How the results depend on the processing

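Counts of members called are given here as the count in each alternative against the count with all libraries, TMM scaling and 1 fit of 41 groups. Depth limits the members with few counts, above all Oasl1 and Oas3, and the 2 libraries with 12191 and 3839 counts add little: without them all 38 counts stayed within 1.5 times. Leaving out library number 1, 2, 3 or 4 in every group gave these lowest and highest counts against unstimulated cells. Under IL-1β the count was 0 at 15 and 30 min, ran from 0 to 1 at 60 min (1 with all) and from 0 to 2 at 120 min (2), and was 1 at 360 min (2). Under TNF-α the count ran from 0 to 1 at 15 min (0), from 0 to 2 at 120 min (3) and from 1 to 3 at 360 min (5). For 100 against 0 µM under IL-1β it ran from 3 to 8 at 15 min (9), 0 to 1 at 30 min (1), 0 to 1 at 60 min (0), 1 to 4 at 120 min (3) and 6 to 15 at 360 min (15). Under TNF-α it ran from 0 to 28 at 15 min (21), 0 to 3 at 60 min (0), 0 to 1 at 120 min (1) and 2 to 6 at 360 min (5). At 360 min they were 0 and 14 for 25 µM (13) and 16 and 26 for 50 µM (27) under IL-1β, and 0 and 0 for 50 µM under TNF-α (2). For IL-1β against TNF-α they were 0 and 0 at 60 min (1) and 0 and 2 at 360 min (2). For late times against 15 min they were 0 and 1 at 120 min of IL-1β (1), 2 and 17 at 120 min of TNF-α (6) and 0 and 8 at 360 min of TNF-α (0).

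The leaving out of single libraries was chosen after seeing the data. Without number 4 of TNF-α 0 µM 15 min the count against unstimulated cells was 1 at 30 min of IL-1β (0) and 9 at 360 min of TNF-α (5). For 100 against 0 µM it was 1 at 60 min of IL-1β (0), and 0 at 15 min (21) and 2 at 60 min (0) of TNF-α. Against 15 min of TNF-α it was 3 at 120 min (6) and 16 at 360 min (0). Without number 1 of IL-1β 25 µM 360 min the counts were 2 at 15 min and 9 at 360 min of TNF-α against unstimulated cells, 0 for 25 against 0 µM at 360 min of IL-1β (13) and 0 for IL-1β against TNF-α at 60 min (1). Without both, the counts against unstimulated cells were 1 at 30 min (0) and 4 at 360 min (2) of IL-1β and 15 at 360 min of TNF-α (5). For 100 against 0 µM they were 2 at 60 min (0) and 6 at 120 min (3) of IL-1β, and 2 at 15 min (21), 1 at 30 min (0) and 2 at 60 min (0) of TNF-α. They were also 0 for 25 µM (13), 4 for IL-1β against TNF-α at 360 min (2) and 26 for 360 against 15 min of TNF-α (0).

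Directions of called genes turned only where 1 of these libraries was left out, alone or with its number. Rsad2 at 100 against 0 µM and 15 min of TNF-α became 0.03 without the library and 0.04 without both, and Cxcl10 there 0.11, where leaving out a number in every group gave from -4.03 and -3.45 up to -0.26 and -0.2. Cxcl10 at 15 min of TNF-α against unstimulated cells became -0.29, -0.19 or -0.18, against up to 3.58 without other numbers. Oasl1 at 25 against 0 µM and 360 min of IL-1β became -0.08, -0.16 or -0.15, against up to 2.01. At 120 against 15 min of TNF-α, leaving out number 4 in every group, that library or both gave 1.24, 1.02 and 1.02 for Rsad2, 0.79, 0.57 and 0.57 for Cmpk2, 0.95, 0.73 and 0.73 for Ifit3b, 0.56, 0.38 and 0.38 for Igtp, and 0.59, 0.4 and 0.4 for Iigp1. Leaving out other numbers gave these 5 genes values down to -3.57, -2.78, -2.67, -2.21 and -2.17.

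Adding the library number as a replicate block changed the count by over 1.5 times in 1 comparison, IL-1β at 30 min against unstimulated cells (1 against 0). It gave 7 against 5 at 360 min of TNF-α and 11 against 9 at 15 min of 100 against 0 µM under IL-1β. Beyond the number, the sources give no link between libraries of different groups. In 0 of 33 comparisons was every pair of the same number correlated above 0.1 in its deviations from the group means. Yet, among the 4 numbers of the same label, 139 of 158 libraries were closest to libraries of their own. Libraries with the same number therefore tended to deviate together across groups, which the main tests did not use. RLE factors gave 1 at 30 min (0) and 1 at 360 min (2) of IL-1β, 0 for 50 µM under TNF-α (2) and 0 for IL-1β against TNF-α at 60 min (1). DESeq2 gave those same counts and 3 at 15 min (0) and 3 at 360 min (5) of TNF-α against unstimulated cells. The share of higher among all genes called moved by over 10 points with RLE factors in most comparisons with SC-514, for example from 45.3% to 59.4% at 15 min of IL-1β and from 40.5% to 60.9% at 15 min of TNF-α. Against unstimulated cells it moved from 56.6% to 42.7% and from 66.8% to 49.2% at 360 min of IL-1β and TNF-α.

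Fits of the compared groups alone gave 1 at 30 min and 9 at 360 min of IL-1β, and 1, 2 and 26 at 30, 60 and 360 min of TNF-α, against unstimulated cells. For 100 against 0 µM they gave 23, 1 and 7 at 15, 60 and 120 min of IL-1β and 0, 2 and 5 at 15, 30 and 60 min of TNF-α. At 360 min they gave 0 for 25 µM and 3 for 50 µM under IL-1β, 5 for 50 µM under TNF-α and 19 for IL-1β against TNF-α. For late times under IL-1β they gave 9 at 120 min (1 higher and 8 lower) and 6 at 360 min (2 higher and 4 lower). Under TNF-α they gave 0 at 120 min. The fit without a filter tested 22070 rows and gave over 1.5 times as many calls in 34 comparisons. Against unstimulated cells it gave 10, 2, 10, 9 and 15 from 15 to 360 min of IL-1β and 22, 1, 5, 10 and 28 of TNF-α. For 100 against 0 µM it gave 26, 12, 8, 17 and 28 under IL-1β and 32, 13, 12, 22 and 21 under TNF-α. It gave 31 for 25 µM under IL-1β, 2 and 9 for 25 and 50 µM under TNF-α, 15, 2 and 24 for IL-1β against TNF-α at 15, 60 and 360 min, and 11, 3, 6 and 17 interactions at 15, 60, 120 and 360 min. For late times it gave 17 and 12 under IL-1β and 22 and 10 under TNF-α. The cause of these differences between fits was not tested.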

Other observations

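Ifnb1, the gene of interferon-β, had too few counts to be tested. It was at 0 in 103 of 164 libraries, had at least 5 counts in 14, and its highest count was 19. The groups described next were chosen after their Ifnb1 counts were seen. In the 12 groups labelled TNF-α with SC-514 at 25 to 100 µM and 15, 30, 60 or 120 min, Ifnb1 was counted in 12 of 12 libraries of number 4, with 97 counts in all (1 to 19 per library, median 6.5). The libraries of numbers 1, 2 and 3 in the same groups had 3, 9 and 9 Ifnb1 counts in all, in 2, 6 and 3 of 12 libraries. In the other groups labelled TNF-α, those at 0 µM or at 360 min, Ifnb1 had 0 or 1 counts in each library of number 4. The 2 libraries that stood apart in the report, number 4 of TNF-α 0 µM 15 min and number 1 of IL-1β 25 µM 360 min, had 0 and 1 counts of Ifnb1. In the 12 groups labelled IL-1β with the same concentrations and times, numbers 1 to 4 had 14, 30, 10 and 16 counts of Ifnb1. The main tests did not treat library numbers of different groups as linked. Yet 139 of 158 libraries were closest to libraries of their own number. The Ifnb1 values are a description of single libraries.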
